A study of Mus musculus with 36 samples.

Results

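The genes described are Hmga2, Igf2bp1, Igf2bp2 and Igf2bp3. Hmga2, Igf2bp1 and Igf2bp3 are known for high expression in fetal tissues and low expression in most adult tissues, while their relative Igf2bp2 is known to stay expressed in many adult tissues. Members were chosen by name, as probe sets that the array annotation pairs with exactly 1 of these 4 genes. The rule found 14 of the 34945 probe sets that name a single gene, or 3 of 18193 genes: 4 probe sets for Hmga2, 4 for Igf2bp1 and 6 for Igf2bp3. The probe sets with the highest mean were 1450781_at for Hmga2, 1418761_at for Igf2bp1 and 1422610_s_at for Igf2bp3. The annotation used here pairs no probe set with Igf2bp2 alone, so Igf2bp2 was not analysed here.

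HMGA2 is a small chromatin protein whose AT hooks bind the minor groove of AT-rich DNA, and it is known to favour self-renewal of fetal and neonatal blood stem cells. The IGF2BP proteins bind RNA through RRM and KH domains and keep target mRNAs such as those of Igf2, Myc and Cd44 stable or translated. In fetal blood cells the RNA-binding protein LIN28B blocks maturation of let-7 microRNAs, and let-7 in turn is known to repress Hmga2 and the Igf2bp genes, so the pathway is often described as a switch between fetal and adult blood formation.

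Expression was measured on 36 one-colour arrays of sorted progenitors from C57BL6 mice, in 8 populations that run from bone marrow stem cells through the precursors that seed the thymus to thymocytes committed to the T lineage. Bone marrow gave stem cells sorted as LSK Flt3- CD48- CD150+ (6 arrays, HSC below), progenitors sorted as LSK Flt3hi IL7R+ that the labels call thymus seeding (6 arrays, LSK below). The thymus gave early thymic progenitors with high Flt3 (ETP, 6 arrays), Kit+ DN2 cells (3 arrays) and DN3 cells (6 arrays). Common lymphoid progenitors (CLP, 4 arrays), adult ETP (2 arrays) and pro-B cells (3 arrays) completed the series. The labels give a tissue for 15 arrays, none of them of these last populations. Every array carries an age of 1 week, strain C57BL6 and both sexes, including the 2 arrays titled adult, whose real age is not given in the labels. The labels name no genetic change or treatment, and they describe the 15 arrays of deposit set 1 as pools of several mice.

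The arrays fall into 2 deposit sets by label style, with array medians of 5.12 to 5.22 in set 1 (15 arrays, 5 populations) and 5.84 to 5.95 in set 2 (21 arrays, 7 populations), so levels are set side by side only within a set. No 2 arrays held identical values, and the highest correlation between arrays was 0.991. Of the marker genes, 4 of 4 for stem cells, among them the sorting gene Slamf1 (CD150), were lower and 4 of 4 for lymphoid progenitors, among them the sorting genes Flt3 and Il7r, were higher in LSK than in HSC. Of the 3 ETP markers only Ccr9 was called higher in ETP than in LSK (1.90), while Kit (0.55) and Flt3 (-0.93) were not called. Of the 3 DN2 markers Il2ra (6.95) and Thy1 (4.27) were called higher in DN2 than in ETP, and Kit (-0.80) was not called. All 3 measured DN3 markers were higher in DN2 and in DN3 than in ETP, and all 3 measured pro-B markers were higher in pro-B cells than in CLP. Levels below are the deposited log2 values, where a step of 1 is 2-fold, of the probe set with the highest mean for a gene. Differences are fitted with limma over all 36 arrays with the deposit set as a term, and a gene is called when its Benjamini-Hochberg adjusted p is under 0.05 and its difference at least 1. These p-values measure the spread between the samples, which may be partly technical. Arrays average over sorted cells, so fewer expressing cells and less RNA per cell cannot be told apart.

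The sequences of let-7 are shown because this family is the known common repressor of the members, and its seed, bases 2 to 8, is what pairs with target mRNAs. RefSeq's table for GRCm38.p6 holds 1738 mature mouse microRNAs, and 11 distinct sequences at 13 loci carry the seed of let-7a. The lines give 4 of these and 1 relative with another seed, 5′ to 3′, with the seed in capitals. They lie at chr13:48538239-48538260 (minus strand), chr15:85707325-85707346 (plus), chr9:106178846-106178867 (plus), chrX:151913229-151913250 (plus) and chr3:140028281-140028304 (plus).
let-7a-5p: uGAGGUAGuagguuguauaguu
let-7b-5p: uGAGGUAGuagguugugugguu
let-7g-5p: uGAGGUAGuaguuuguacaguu
miR-98-5p: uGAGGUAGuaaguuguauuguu
let-7j: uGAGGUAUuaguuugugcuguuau
The first 4 share all 7 seed bases and differ only outside the capitals, while let-7j has a different seed. No value for a mature microRNA was used here, so the arrays bear on the processing genes and targets of let-7 and not on let-7 itself.

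The promoter of Hmga2 is shown because Hmga2 had the widest range of any member. The 250 bases before its start lie at chr10:120476470-120476719 on the minus strand (RefSeq, GRCm38.p6), and capitals mark its 5 runs of at least 10 bases made only of C and T.
Hmga2 promoter: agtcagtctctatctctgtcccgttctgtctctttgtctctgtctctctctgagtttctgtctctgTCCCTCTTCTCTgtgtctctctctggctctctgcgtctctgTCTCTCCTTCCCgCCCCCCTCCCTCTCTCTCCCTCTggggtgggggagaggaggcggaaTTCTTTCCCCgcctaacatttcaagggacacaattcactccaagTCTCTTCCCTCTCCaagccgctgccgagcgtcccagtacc
C and T made up 70.8% of this window, a share reached by 0.414% of the 32851 promoters in the table, whose median is 50%. The Igf2bp3 window was 68.0% C or T, a share reached by 0.737% of promoters, and the Igf2bp2 window 58.0%, reached by 10.2%. The longest run of C and T was 23 bases for Hmga2 and 35 bases for Igf2bp3, lengths reached by 1.83% and 0.289% of promoters. On either strand, GGGCGG, the GC box bound by Sp factors, matched once before Hmga2 and not before Igf2bp3 (32.7% of promoters hold it). CACGTG, the E-box bound by MYC and its relatives, matched once before Igf2bp3 and not before Hmga2 (6.02% hold it), and TGGGAA, the core of the motif of the Notch partner RBPJ, matched neither (21.6% hold it). The motifs and the C and T count were chosen after the sequences were seen. Of the 4 genes, Igf2bp1 was not matched in the promoter table.

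Hmga2 and Igf2bp3 both varied among the 8 populations and Igf2bp1 did not pass the test. In limma's moderated F test, which 47.8% of genes passed, Hmga2 ranked 12th of 18193 genes (F = 336.4, adjusted p = 2.94e-24). Igf2bp3 passed as well (F = 35.23, adjusted p = 1.56e-11), and Igf2bp1 did not (F = 0.735, adjusted p = 0.689). The 2 varying genes followed different courses: over the 12 population means within a set, Hmga2 and Igf2bp3 correlated with Pearson's r = 0.121, given as a description since the points share arrays and sets.

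**Figure D1:**
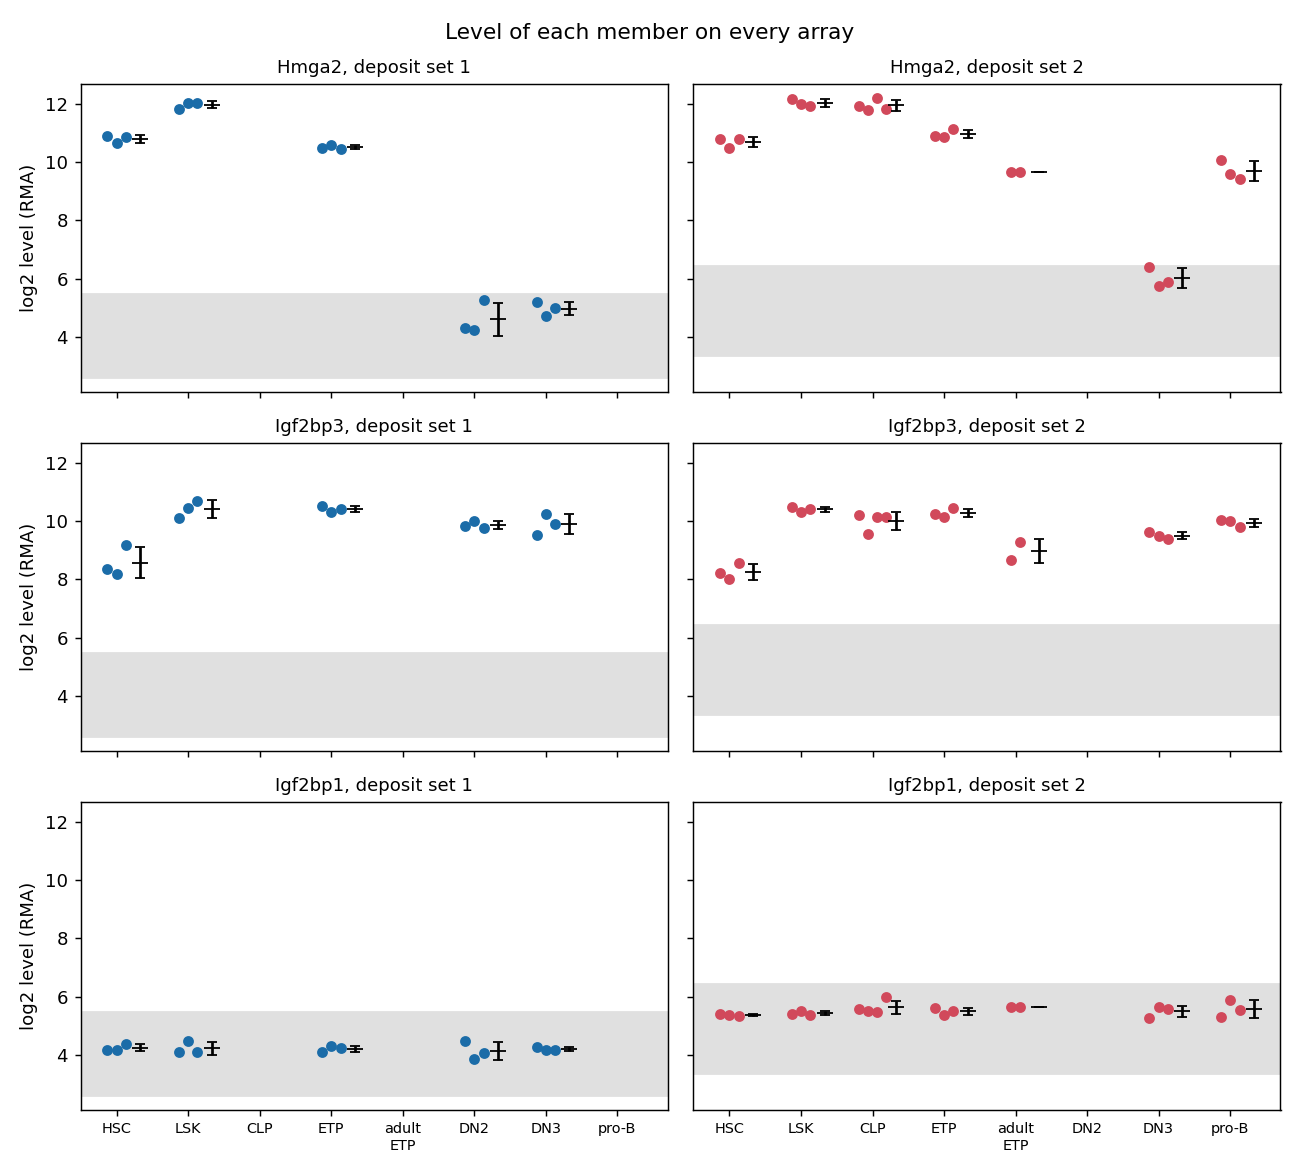
Deposited log2 level of Hmga2, Igf2bp3 and Igf2bp1 on every array, by population, with deposit set 1 on the left and set 2 on the right. Points are arrays, black bars the mean ± SD beside them, and the grey band spans the mean levels of 10 genes of unrelated tissues in that set. Hmga2 enters the band in DN2 and DN3, Igf2bp3 stays above it on all arrays, and Igf2bp1 stays inside it.

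Igf2bp1 lay at the level of genes that blood cells are not known to use. On the 15 arrays of set 1 it ran from 3.88 (DN2 replicate 2) to 4.49 (DN2 replicate 1), and on the 21 arrays of set 2 from 5.29 (DN3 replicate 4) to 5.98 (CLP replicate 4). The means of 10 genes of unrelated tissues ran from 2.61 to 5.49 with a median of 4.48 in set 1, and from 3.35 to 6.42 with a median of 5.59 in set 2. Igf2bp1 was therefore inside that range on every array, and its 4 probe sets gave 0 calls in each of the 8 comparisons. Its largest fitted difference was 0.19 for CLP minus LSK (adjusted p = 0.616 by limma). With no set term that difference was 0.81 (adjusted p = 0.223 by limma), DN2 minus ETP was -0.71 and adult ETP minus ETP 0.79. None of them was called. CLP and adult ETP lie in set 2 alone and DN2 in set 1 alone. These values therefore also hold part of the shift between the sets, 1.23 for this probe set. At this signal a change of Igf2bp1 was not detectable.

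Both Hmga2 and Igf2bp3 rose from stem cells to thymus-seeding LSK progenitors. In set 1 Hmga2 read 10.88, 10.64 and 10.86 in HSC replicates 1 to 3 and 11.82, 12.02 and 12.03 in LSK replicates 1 to 3. In set 2 it read 10.78, 10.47 and 10.79 in HSC and 12.17, 11.99 and 11.91 in LSK replicates 4 to 6. All LSK arrays lay above all HSC arrays. The fitted difference was 1.25 ± 0.18 (SE), or 2.38-fold, with an adjusted p of 1.32e-06 by limma.

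Igf2bp3 rose over the same step. It read 8.35, 8.20 and 9.19 in HSC replicates 1 to 3 and 10.10, 10.45 and 10.69 in LSK replicates 1 to 3. In set 2 it read 8.22, 8.02 and 8.55 in HSC and 10.50, 10.31 and 10.40 in LSK replicates 4 to 6. HSC was the lowest population on 1422610_s_at in both sets, and no LSK array overlapped it. In set 2 adult ETP averaged below HSC on 1422611_s_at (8.14 against 8.34) and 1450687_at (5.39 against 5.87), and HSC was lowest on the remaining Igf2bp3 probe sets. The fitted difference was 1.99 ± 0.15 (SE), or 3.97-fold (adjusted p = 4.09e-12 by limma). Of the 3 members measured 2 were called in this comparison, in which 8.41% of all genes were called.

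Every probe set of the 2 genes gave the same call for this step. The 4 Hmga2 probe sets rose by 1.22 to 2.08 and the 6 Igf2bp3 probe sets by 1.46 to 2.44, beside 8.01% of single-gene probe sets called. The differences within set 1 and set 2 were 1.16 and 1.34 for Hmga2 and 1.84 and 2.14 for Igf2bp3. The difference between the sets did not pass for either gene (adjusted p = 0.994 and 0.970 by limma), while 0.423% of all genes passed that test.

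Genes of other cell types moved with this comparison. Stroma genes averaged 7.03 on HSC replicate 2, 8.11 on HSC replicate 4 and 5.95 on LSK replicate 1. On the other HSC and LSK arrays they averaged 4.58 to 4.76 in set 1 and 5.48 to 6.13 in set 2. Of these 6 genes 1 was called lower in LSK. The 3 endothelial genes measured were all called lower in LSK, and averaged 7.75 to 9.72 on the HSC arrays of set 2 against at most 5.65 elsewhere in that set. Late granulocyte genes averaged up to 8.36 in LSK of set 1 and up to 8.65 in HSC of set 2, with 0 of 5 called. All 3 measured pro-B genes were called higher in LSK, Pax5 by 1.66, Vpreb1 by 3.48 and Ebf1 by 3.59. In a fit without those 3 stroma-high arrays, added once the marker levels were known, Hmga2 rose by 1.23 (adjusted p = 6.12e-05) and Igf2bp3 by 1.97 (adjusted p = 2.6e-10), both by limma. Within set 1, where endothelial genes averaged 4.83 to 5.41 in HSC and 4.02 to 4.68 in LSK, the rises were 1.16 and 1.84. The part of the endothelial and pro-B genes in the result was not tested further.

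Between LSK progenitors and CLP no difference of either gene was called. Hmga2 read 11.93, 11.80, 12.21 and 11.83 in CLP replicates 1 to 4, a range that overlaps LSK in the same set. Igf2bp3 read 10.21, 9.55, 10.14 and 10.14, of which 3 lay just below the lowest LSK array of set 2 (10.31) and replicate 2 further below it. The fitted differences, CLP minus LSK, were -0.23 for Hmga2 (95% confidence interval -0.65 to 0.20, adjusted p = 0.741) and -0.29 for Igf2bp3 (-0.65 to 0.07, adjusted p = 0.597), by limma. Within set 2, the only set with CLP, they were -0.08 and -0.39. The call rate was 0.33% over all genes and 0.326% over single-gene probe sets, and 0 of the 14 member probe sets was called. Late granulocyte genes averaged 9.50 and 8.13 on CLP replicates 1 and 2, and without both arrays the differences were -0.15 and -0.16.

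From LSK progenitors to ETP in the thymus Hmga2 fell and Igf2bp3 was not called. Hmga2 read 10.49, 10.60 and 10.45 in ETP replicates 1 to 3 and 10.90, 10.87 and 11.12 in replicates 4 to 6. All ETP arrays lay below all LSK arrays of their set, by 1.45 on average in set 1 and 1.06 in set 2. The fitted difference was -1.25 ± 0.18 (SE) with an adjusted p of 1.03e-05 by limma. All 4 Hmga2 probe sets were called lower, with differences from -1.25 to -1.20, beside 1.49% of all single-gene probe sets. The difference between the sets did not pass (adjusted p = 1.00 by limma; 0.033% of genes passed).

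Igf2bp3 read 10.52, 10.30 and 10.41 in ETP replicates 1 to 3 and 10.25, 10.14 and 10.44 in replicates 4 to 6, overlapping LSK in both sets. Its fitted difference was -0.07 with a 95% confidence interval of -0.37 to 0.24 (adjusted p = 0.955 by limma). So 1 of the 3 measured members was called at thymus entry, where 1.67% of all genes were called.

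Genes of other cell types differed between LSK and ETP as well. All 3 measured pro-B genes were called lower in ETP, with differences of -3.77 for Ebf1, -4.14 for Vpreb1 and -1.65 for Pax5. Of the 3 endothelial genes Emcn was called lower (-1.89), and of the 6 stroma genes Pdgfrb was called higher (1.44). Late granulocyte genes averaged 4.68 to 8.36 in LSK and 4.32 to 4.46 in ETP of set 1, with 0 of 5 called. Their part in the result was not tested.

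The largest change of Hmga2 came between ETP and Kit+ DN2 cells, the next thymic stage sorted here. In DN2 replicates 1 to 3 it read 4.32, 4.23 and 5.27, against 10.45 to 10.60 in ETP of the same set. The groups lay more than 5 log2 units apart, and all 3 DN2 arrays sat inside the range of unrelated-tissue genes. The fitted log2 difference of Hmga2 was -5.95 ± 0.23 (SE) and was called (adjusted p = 2.4e-19 by limma), and averaging its 4 probe sets gave -4.45. Because DN2 lies at the array's floor, how much Hmga2 RNA remained there was not measurable, and no fold is drawn from the difference.

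Other genes with large falls in this fit were Csf1r, the receptor of the macrophage growth factor CSF1, at -5.91 ± 0.55 (SE), Flt3, the cytokine receptor used in sorting ETP, at -5.66, Adgrl4 at -4.86 and Ctss at -4.81. No order between Hmga2 and these genes is drawn, since Hmga2 reached the floor in DN2. All 4 Hmga2 probe sets were called lower, by -5.95 to -2.22, beside 2.78% of all single-gene probe sets. The smallest value belonged to 1446196_at, whose ETP mean of 4.76 in set 1 was already low. Of the 3 measured members 1 was called, against 3.09% of all genes.

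The level of Igf2bp3 in DN2 remained above that of every unrelated-tissue gene. It read 9.83, 10.02 and 9.76 in DN2 replicates 1 to 3, all below the ETP arrays of set 1 but within 1 log2 unit of them. The fitted difference was -0.58 ± 0.19 (SE) and did not pass (adjusted p = 0.0855 by limma), and 0 of its 6 probe sets was called. Stroma, endothelial and late granulocyte genes gave 0 calls between ETP and DN2.

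**Figure D2:**
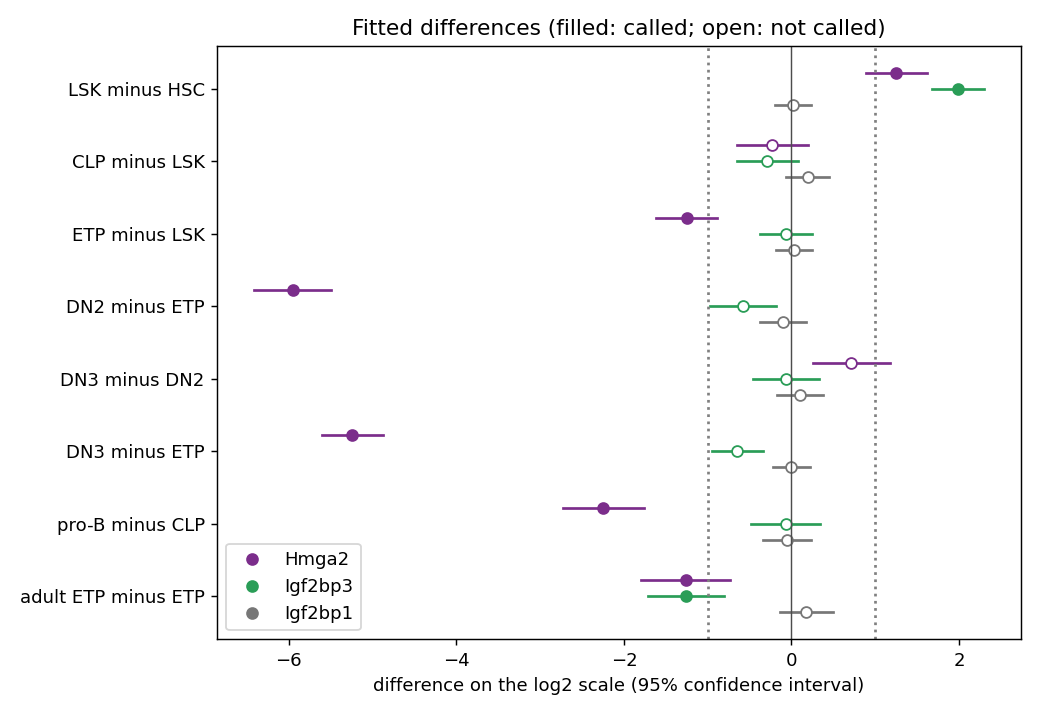
Fitted differences on the log2 scale for Hmga2, Igf2bp3 and Igf2bp1 in 8 comparisons, with 95% confidence intervals as bars. Filled points are called (adjusted p under 0.05 and at least 1 in size, dotted lines) and open points are not. Hmga2 reaches -5.95 from ETP to DN2, where Igf2bp3 stays at -0.58.

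Hmga2 was low in DN3 cells too. It read 5.19, 4.74 and 5.01 in DN3 replicates 1 to 3, overlapping DN2, and 6.42, 5.77 and 5.88 in replicates 4 to 6. Of these 6 arrays 5 lay inside the range of unrelated-tissue genes measured on the same array. The fitted difference DN3 minus DN2 was 0.71 ± 0.23 (SE) and was not called (adjusted p = 0.0548 by limma). Within set 1, the only set with DN2, it was 0.37, and with the mean of the probe sets 0.24. It became 1.05 (adjusted p = 0.00602) without DN2 replicate 3, the highest DN2 array. Both populations lie at the array's floor, so no order between them is drawn. None of the 3 measured members was called there, beside 2.34% of all genes, and 0 of their 14 probe sets was, beside 2.07%.

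Against ETP, Hmga2 fell by 5.24 ± 0.18 (SE) in DN3 on the log2 scale (adjusted p = 3.62e-21 by limma). With the mean of the probe sets it fell by 4.21. DN3 lies at or near the floor as well, so no fold is drawn here either. The difference was -5.53 in set 1 and -4.94 in set 2, and the test of the sets against each other did not pass (adjusted p = 0.898 by limma; 0 of all genes passed). Of the 3 measured members 1 was called, beside 5.9% of all genes. Of the 6 stroma genes Pdgfrb was called lower in DN3 (-1.04), and its part in the result was not tested.

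Igf2bp3 was modestly lower in DN3. It read 9.54, 10.24 and 9.92 in DN3 replicates 1 to 3 and 9.62, 9.50 and 9.37 in replicates 4 to 6, and each array lay below every ETP array of its set. The difference of -0.64 ± 0.15 (SE) had an adjusted p of 0.00219 by limma but stayed under the 2-fold threshold, so it was not called. Of its 6 probe sets 1 was called lower (1450687_at, -1.16), against 4 of 4 for Hmga2 and 5.4% of all single-gene probe sets. In both sets DN3 still lay above HSC on 1422610_s_at. In set 2 the DN3 and HSC arrays overlapped on 1422611_s_at, and 1450687_at averaged 5.75 in DN3 and 5.87 in HSC.

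Hmga2 also fell from CLP to pro-B cells. In pro-B replicates 1 to 3 it read 10.08, 9.58 and 9.43, against 11.80 to 12.21 in CLP, with no overlap. The difference was -2.24 ± 0.24 (SE), or 4.74-fold (adjusted p = 2.03e-08 by limma), the 52nd lowest of all genes. All 4 probe sets were called lower, by -2.60 to -1.79, beside 5.54% of all single-gene probe sets. The pro-B arrays lay above all DN3 arrays of the same set, at a mean of 9.70 against 6.02.

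Igf2bp3 read 10.05, 9.995 and 9.78 in pro-B replicates 1 to 3, within the range of CLP. Its difference was -0.07 with a 95% confidence interval of -0.48 to 0.34 (adjusted p = 0.861 by limma). Its probe sets spread from -0.73 to 0.60 without a call, so they did not share a direction. Of the 3 measured members 1 was called, against 5.85% of all genes. Late granulocyte genes averaged 7.36 to 8.55 on the pro-B arrays and 1 macrophage gene of 5 was called higher there. Emcn, 1 of the 3 endothelial genes, was called lower in pro-B cells (-1.38), as was Pdgfrb, 1 of the 6 stroma genes (-1.08). Their part in the result was not tested. Without CLP replicates 1 and 2 the Hmga2 difference was -2.32 (adjusted p = 1.45e-06 by limma).

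**Figure D3:**
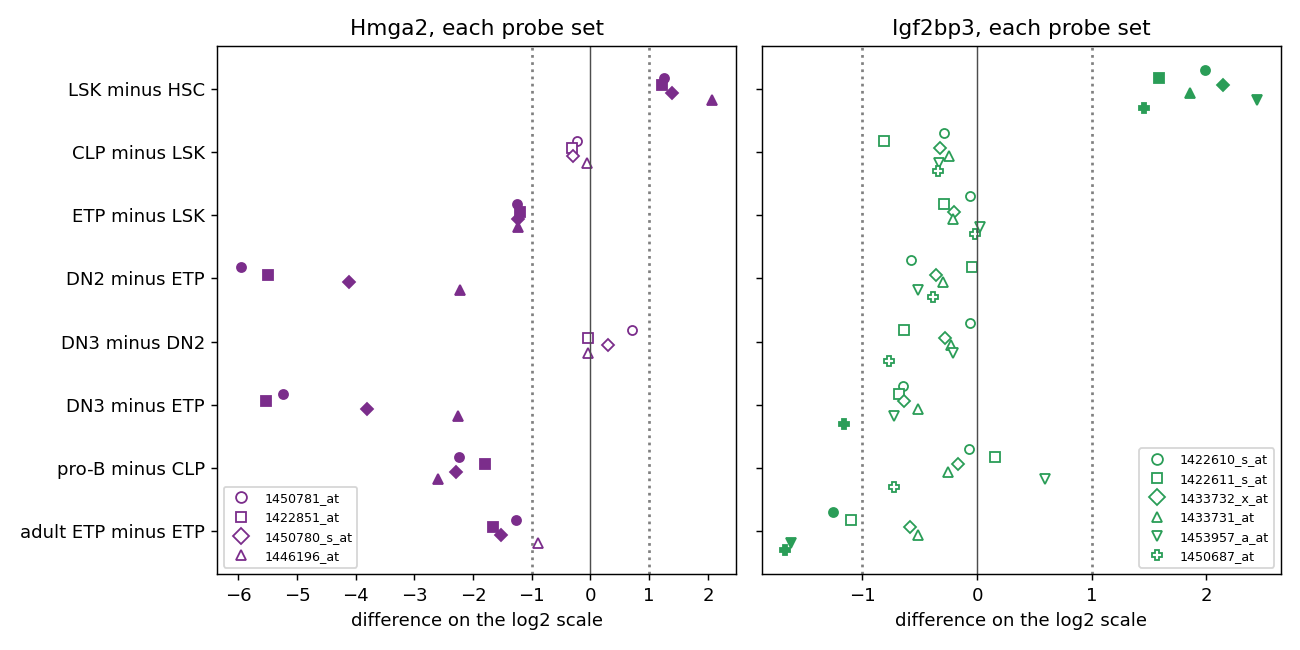
Fitted log2 differences of each Hmga2 probe set (left) and each Igf2bp3 probe set (right) in 8 comparisons, filled where called over all single-gene probe sets. All 4 Hmga2 probe sets are filled below 0 from ETP to DN2, and no Igf2bp3 probe set is filled there. The dotted lines mark a difference of 1 in size.

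Hmga2 and Igf2bp3 were both lower on the arrays titled adult ETP than on the other ETP arrays. Hmga2 read 9.65 and 9.66 on the 2 adult arrays against 10.90, 10.87 and 11.12 in ETP of the same set. Igf2bp3 read 8.68 and 9.27 against 10.25, 10.14 and 10.44. Neither gene's adult arrays overlapped ETP of that set. Those of Igf2bp1, a gene at the array's floor, did not overlap it either and lay above. How many of all genes were separated in this way was not counted, so nothing is drawn from it.

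The fitted differences, adult ETP minus ETP, were -1.26 ± 0.26 (SE) for Hmga2 (2.40-fold, adjusted p = 0.0204) and -1.26 ± 0.22 (SE) for Igf2bp3 (2.40-fold, adjusted p = 0.00718), by limma. So 2 of the 3 measured members were called, in a comparison that called 0.209% of all genes, which is 38 genes with 27 of them lower. Hmga2 was the 45th and Igf2bp3 the 46th lowest of all differences. Of the probe sets, 3 of 4 for Hmga2 and 3 of 6 for Igf2bp3 were called lower, beside 0.209% of all single-gene probe sets. Within set 2 alone the differences were -1.31 and -1.30, both with an adjusted p of 0.015.

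These calls rest on 2 adult arrays. The Hmga2 call was lost without adult replicate 1 (-1.25, adjusted p = 0.392), without adult replicate 2 (-1.27, adjusted p = 0.129) and without ETP replicate 6 (-1.21, adjusted p = 0.0533). The Igf2bp3 call was lost without adult replicate 1 (-0.96, adjusted p = 0.392). In a fit of ETP and adult ETP alone, which also has no set term, neither was called (adjusted p = 0.303 and 0.182), all by limma.

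Other genes that separate the adult arrays bear on what these samples are. Xist, the RNA that coats the inactive X chromosome of female cells, read 5.13 and 5.80 on the adult arrays and 11.97 to 12.12 in ETP of set 2, although the labels give both sexes for every array. The heat shock gene Hspa1a read 10.01 on adult replicate 1 and 4.63 on replicate 2, against 3.0 to 3.86 in ETP of set 2. Egr1, an immediate early gene, was higher by 2.84 (adjusted p = 0.0429 by limma). Dntt, 1 of the 4 lymphoid progenitor markers, was called higher by 1.93 (adjusted p = 0.00718 by limma), and the others of that list were not called. The Hmga2 probe set 1450781_at read alike on both adult arrays, while 1422851_at (8.37 and 8.90) and 1450780_s_at (8.23 and 8.56) were lower on replicate 1. The Igf2bp3 probe set 1422610_s_at was also lower on replicate 1, where Hspa1a was high, than on replicate 2. Age and whatever moved Xist separate the same arrays and cannot be told apart. The ETP markers Flt3, Kit and Ccr9 were not called, with differences of -0.07, 0.20 and -0.32, and stroma, endothelial, macrophage and late granulocyte genes gave 0 calls.

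**Figure D4:**
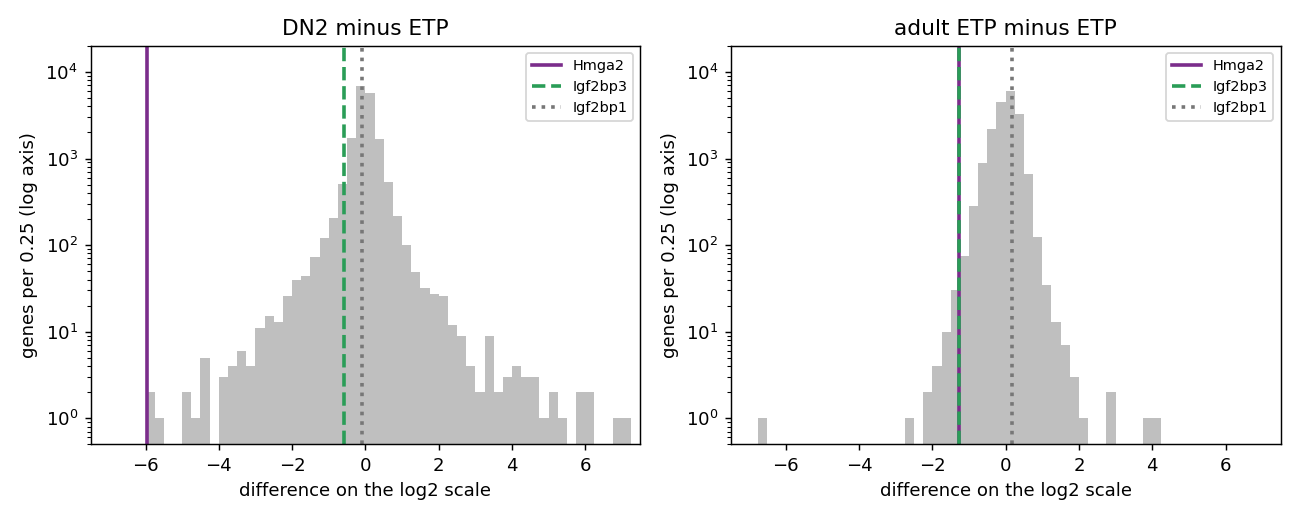
Number of genes (log axis) by fitted log2 difference in bins of 0.25, for DN2 minus ETP on the left and adult ETP minus ETP on the right, with lines at Hmga2, Igf2bp3 and Igf2bp1. Hmga2 sits far to the left in the first panel (-5.95), where its DN2 level is at the array's floor, and Hmga2 and Igf2bp3 overlie each other on the right (-1.26).

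The order of the populations sums up the levels. For Hmga2 in set 2 it ran LSK 12.02 ± 0.13 (SD, n = 3), CLP 11.94 ± 0.19 (n = 4), ETP 10.96 ± 0.13 (n = 3), HSC 10.68 ± 0.18 (n = 3), pro-B 9.70 ± 0.34 (n = 3), adult ETP 9.66 (n = 2) and DN3 6.02 ± 0.35 (n = 3). Arrays of LSK and CLP overlapped, as did those of pro-B and adult ETP, and no other neighbours did. In set 1 the order was LSK, HSC, ETP, DN3 and DN2, with overlap between DN3 and DN2 alone, and HSC and ETP changed places between the sets. These orders are those of 1450781_at. On 1422851_at and 1450780_s_at the HSC and ETP arrays overlapped in both sets, and on 1446196_at they overlapped in set 1.

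For Igf2bp3 in set 2 the order was LSK 10.40 ± 0.09 (SD, n = 3), ETP 10.28 ± 0.15 (n = 3), CLP 10.01 ± 0.31 (n = 4), pro-B 9.94 ± 0.14 (n = 3), DN3 9.50 ± 0.13 (n = 3), adult ETP 8.97 (n = 2) and HSC 8.26 ± 0.27 (n = 3). The first 4 overlapped from neighbour to neighbour, while DN3, adult ETP and HSC each stood apart. In set 1 the order was LSK, ETP, DN3, DN2 and HSC, with overlap between LSK and ETP and between DN3 and DN2. These orders are those of 1422610_s_at. In set 2 adult ETP averaged above DN3 on 1433732_x_at (7.76 and 7.69) and 1433731_at (7.42 and 7.38). It averaged below HSC on 1422611_s_at and 1450687_at. On 1453957_a_at the order of DN3, adult ETP and HSC held, with overlap between neighbours.

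The genes whose pattern was most like Hmga2, by Pearson's r over the 12 population means within sets among 6282 genes that vary by at least 1, were Egfl7 (r = 0.980), Ccnd1 (0.977), Fchsd2 (0.966), Specc1 (0.964) and Csf2rb (0.958). Their differences from ETP to DN2 ran from -3.46 for Ccnd1, a cyclin of the G1 phase, to -0.80 for Fchsd2, with -2.49 for Csf2rb, the shared beta chain of the GM-CSF receptor family. None matched the range of Hmga2, which spanned 7.35 against at most 3.97. For adult ETP minus ETP they ran from -0.77 (Ccnd1) to 0.17 (Csf2rb), and none was called.

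Genes most like Igf2bp3 were Cyrib (r = 0.957), Foxn2 (0.953), Prmt1 (0.942), Pelp1 (0.938) and Fignl1 (0.937). Prmt1 is the main enzyme that places asymmetric dimethyl marks on arginine. For adult ETP minus ETP they ran from -0.78 to -0.52, and none was called. Igf2bp1 spanned only 0.277 over the same points, so its most like gene, Cd300lf (r = 0.888), and the next, Igha, Gm10638, Tfap2c and Dalrd3, describe variation near the array's floor.

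**Figure D5:**
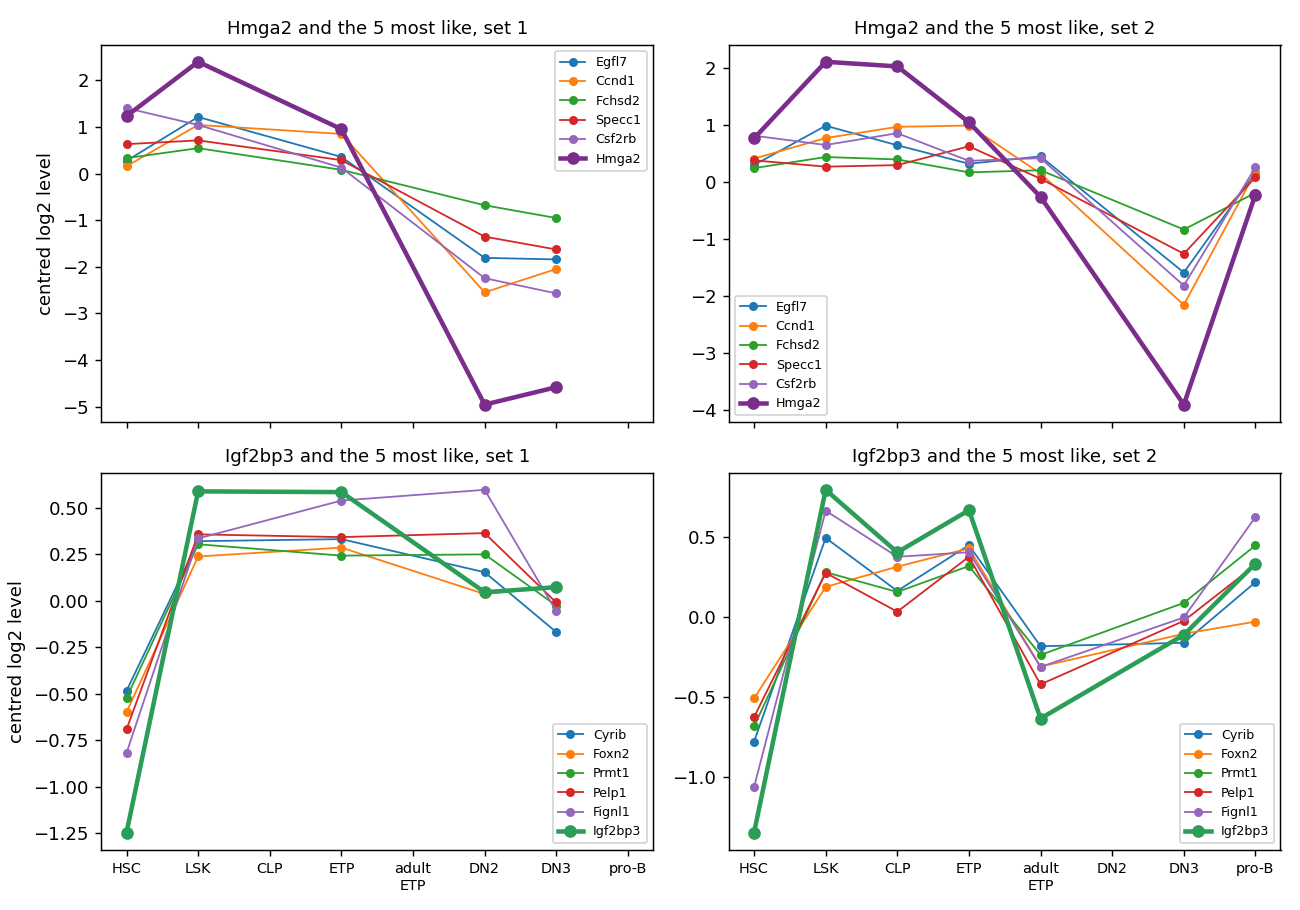
Population means, centred within each deposit set on the mean of HSC, LSK, ETP and DN3, for Hmga2 (top, thick line) and Igf2bp3 (bottom, thick line) with the 5 genes most like each. The log2 axes differ between panels. On the probe sets plotted, the measured drop of Hmga2 in DN2 and DN3 exceeds that of any of its 5 genes. Igf2bp3 is lowest in HSC in both sets on its plotted probe set.

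The genes that control let-7 upstream of the members showed no call. Of 16 genes for LIN28 and let-7 processing, all 16 were measured and 0 was called in each of the 8 comparisons, with medians from -0.13 to 0.07 beside -0.02 to 0.05 over all genes. Lin28b, the fetal blocker of let-7, had means of 2.31 to 2.59 in set 1 and 2.89 to 3.41 in set 2, and Lin28a 3.46 to 3.88 and 4.39 to 4.73. Lin28a lay inside the range of unrelated-tissue genes and Lin28b at or below its lower end. At that signal a change of either gene was not detectable.

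Counts of the gene lists stand beside the shares of all genes called: 8.41% from HSC to LSK, 0.33% from LSK to CLP, 1.67% from LSK to ETP, 3.09% from ETP to DN2, 2.34% from DN2 to DN3, 5.9% from ETP to DN3, 5.85% from CLP to pro-B cells and 0.209% from ETP to adult ETP. Other known let-7 targets moved in both directions. Of 18 measured, 2 rose and 2 fell from HSC to LSK: the kinase Cdk6 (2.40) and Myc (1.31) rose and the receptor Igf1r (-1.58) and Mycn (-1.38) fell, with a list median of -0.08 beside 0.01 over all genes. From ETP to DN2 only Ccnd1 of these 18 was called (-3.46, median -0.08 beside -0.02), and from ETP to DN3 Ccnd1 (-3.02), Mycn (-1.82) and the TGF-beta receptor Tgfbr1 (1.30) were. Mycn was called from LSK to ETP (1.31) and Ccnd2, a second G1 cyclin, from CLP to pro-B cells (-1.42). In adult ETP 0 of 18 was called, with a median of -0.26 beside 0.04 over all genes.

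Of 10 other fetal and neonatal genes measured, Igf2, the fetal growth factor whose mRNA gave the IGF2BP family its name, fell by 2.99 on the log2 scale from HSC to LSK while Cbx2, a Polycomb subunit, rose by 1.15. None was called from ETP to DN2 or from ETP to adult ETP, where the list medians were -0.05 and -0.04. Cbx2 fell by 1.01 on the log2 scale from DN2 to DN3.

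Among 5 measured relatives of Hmga2 in the HMG family only Hmgn3, a nucleosome-binding protein, was called, at -2.02 from HSC to LSK, 1.47 from ETP to DN3 and 1.55 from CLP to pro-B cells. Of 5 genes linked to Hmga2 in earlier work, the mitotic cyclins Ccna2 and Ccnb2 rose by 1.84 and 1.75 from HSC to LSK. They rose by 1.83 and 1.42 from CLP to pro-B cells, and any link to Hmga2 here was not tested. Ccna2 was also called from LSK to CLP (-1.20).

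Of 5 measured RNAs known to be bound by IGF2BP proteins, Igf2 and Myc were called from HSC to LSK, with values as above. Cd44, an adhesion receptor, fell by 2.28 on the log2 scale from ETP to DN2 and by 2.38 from DN2 to DN3. It fell by 4.67 from ETP to DN3 and by 1.11 from CLP to pro-B cells. Any link of these falls to Igf2bp3 was not tested. Among 14 genes of the IGF axis, the ligands Igf1 (-3.18) and Igf2 and the receptor Igf1r were called lower from HSC to LSK, and 0 was called higher (median -0.36 beside 0.01 over all genes). Stroma and endothelial genes were high on some HSC arrays, as given above, and their part in these values was not tested. The scavenger receptor Igf2r was called from LSK to ETP (-1.35) and from ETP to DN2 (1.05), and the binding protein Igfbp4 from DN2 to DN3 (-3.48) and from CLP to pro-B cells (-1.31). No gene of these 4 groups was called in adult ETP against ETP.

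The measured genes nearest to Hmga2 on chromosome 10 were Tmbim4 and Irak3 on one side and Msrb3 and Lemd3 on the other. From ETP to DN2 Msrb3, a methionine sulfoxide reductase, was called as well (-3.39, adjusted p = 8.73e-09 by limma), and the other 3 were not. In adult ETP none of the 4 was called. Of the 4 nearest measured genes of Igf2bp3 on chromosome 6, Gpnmb, Malsu1, Tra2a and Ccdc126, none was called in either comparison.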

How the data were processed

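The deposited table holds log2 expression values per probe set, made by the authors with RMA per the submitters' processing notes (background correction, normalization between arrays, probe summary); its version is not given in the sources used here, and the log base was read from the values. Probe sets were named through the platform annotation: 34945 of 45101 name 1 gene, 932 several and 9160 none listed, and 64 are controls. Each gene was stood for by its probe set with the highest mean, which left 18193 genes, 9010 of them with several probe sets. Members, lists and tests were chosen with earlier results of these data known. The text names the members, up to 3 called genes per list and comparison, and the 5 most like genes. Genes named outside this rule (the largest falls, chromosomal neighbours, Xist, Hspa1a, Egr1 and Dntt) were chosen after their values were seen.

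limma 3.58.1 in R 4.3.3 (lmFit, eBayes) fitted population and deposit set over 36 arrays, with Benjamini-Hochberg adjustment over all genes, or over 34945 probe sets for single probe sets. The fit was tested on simulated data. Python 3.11.15, pandas 2.3.3 and matplotlib 3.10.9 were used for sequences and plots. No pairing of the samples by the labels' replicate numbers was detected. Alternatives covered the set term, the arrays fitted, scaling, choice of probe set, low values, the fold threshold, array weights, the replicate block and each array left out. The number of arrays limits the precision.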

Additional observations from a re-analysis of the deposited data

Results flagged for a closer look

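Of 70 groups of 4 to 6 arrays examined, 3 held an array whose distance from the nearest other was large for the range of its group; chance gives such an array in about 1 of 20 groups. CLP replicate 2 read 9.55 for Igf2bp3 (probe set 1422610_s_at) against 10.14 to 10.21 on the other CLP arrays. The same array read 7.63 for the Igf2bp3 probe set 1422611_s_at against 8.98 to 9.23. HSC replicate 3 read 4.38 for Igf2bp1 (1418761_at), with HSC replicates 1 and 2 both at 4.18, and stood out among the 6 HSC arrays once the shift between the deposit sets was removed.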

How the results depend on the processing

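The Hmga2 calls for LSK minus HSC, ETP minus LSK, DN2 minus ETP, DN3 minus ETP and pro-B minus CLP and the Igf2bp3 call for LSK minus HSC held under every alternative run. For adult ETP minus ETP, Hmga2 was -1.08 and not called with no set term (adjusted p = 0.212) or with the 2 populations alone (0.303), and Igf2bp3 was -1.37 and not called with the 2 populations alone (0.182). The fit of the 2 populations alone also drops the set term where 1 of them lies in 1 set only. That is so in CLP minus LSK, DN2 minus ETP, DN3 minus DN2 and adult ETP minus ETP. Leaving out single arrays gave -1.28 to -1.21 for Hmga2 and -1.56 to -0.96 for Igf2bp3 there, 0.53 to 1.05 for Hmga2 in DN3 minus DN2, and 6 to 40 called genes for adult ETP minus ETP. With no fold threshold Igf2bp3 in DN3 minus ETP (-0.64) was called. With no set term the F of Igf2bp1 was 2.768 (adjusted p = 0.0474 by limma), a value that also holds the shift between the deposit sets.

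Counts of called genes moved by over 1.5 times as follows. With no fold threshold they were 4749 (LSK minus HSC), 104 (CLP minus LSK), 637 (ETP minus LSK), 934 (DN2 minus ETP), 1114 (DN3 minus DN2), 2922 (DN3 minus ETP), 3097 (pro-B minus CLP) and 80 (adult ETP minus ETP). CLP minus LSK gave 38 with no set term and 11 with the 2 populations alone, DN3 minus DN2 276 with the 2 populations alone, and adult ETP minus ETP 14 with no set term, 13 within set 2, 2 with the 2 populations alone and 133 with array weights.

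Signs turned only in differences that were not called. Igf2bp1 was -0.012 (LSK minus HSC) and -0.014 (ETP minus LSK) within set 1, 0.0056 (DN3 minus ETP) within set 2, 0.012 there with arrays centred, -0.16 and 0.12 (LSK minus HSC, DN3 minus ETP) with the mean of probe sets, and 0.019 (pro-B minus CLP) with array weights. Igf2bp3 was 0.027 (DN3 minus DN2) within set 1, 0.033 there with quantile normalization, and 0.026 and 0.60 (ETP minus LSK, pro-B minus CLP) with the most variable probe set. The difference between sets was -0.32 for Igf2bp3 in LSK minus HSC and -0.040 for Igf2bp1 and 0.036 for Igf2bp3 in ETP minus LSK with the mean of probe sets, and -0.0059 for Igf2bp1 in DN3 minus ETP with arrays centred. Single arrays left out gave, for Igf2bp1, -0.27 to 0.032 (DN2 minus ETP), -0.032 to 0.27 (DN3 minus DN2), -0.034 to 0.039 (DN3 minus ETP), -0.0026 to 0.084 (ETP minus LSK), -0.040 to 0.055 (LSK minus HSC) and -0.21 to 0.088 (pro-B minus CLP), and for Igf2bp3 -0.18 to 0.0083 (DN3 minus DN2) and -0.22 to 0.011 (pro-B minus CLP). The cause was not tested.

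No pairing of the samples by replicate number was detected: deviations of 55 same-numbered pairs correlated from -0.19 to 0.20, with 3 over 0.1. Those of 206 different-numbered pairs correlated from -0.26 to 0.23, with 20 over 0.1. With the replicate block Hmga2 was -5.95 in DN2 minus ETP (545 genes called) and Igf2bp1 0.061 in pro-B minus CLP, and no call of a member changed. No block could be fitted for CLP minus LSK and adult ETP minus ETP, whose populations share no numbers within a set. The filter on low means leaves out Igf2bp1, so it gave no value for it. A level near the array's floor limits what can be said of Igf2bp1 everywhere and of Hmga2 in DN2 and DN3.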
